A study of Mus musculus with 8 samples.

Results

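Aldh1a1, Aldh1a2 and Aldh1a3, the genes of the ALDH1A enzymes that make retinoic acid, and Neurog3, Sox9 and Hes1, regulators of pancreatic progenitor cells, were followed in cultured mouse islets. These 6 genes were taken by symbol from the 27534 genes of the deposited table, and all 6 were among the 15442 genes with enough reads to be tested. Islets are the endocrine clusters of the pancreas, in which insulin-producing β cells outnumber the α, δ and PP cells. Islets of C57BL/6J mice were kept for 72 h in 20 mM glucose (high glucose, libraries HG1 to HG4), and islets of the same strain were kept for 72 h in 7.5 mM glucose (low glucose, libraries LG1 to LG4). Both groups were kept in RPMI medium with fetal bovine serum, and bulk RNA was sequenced, so every cell in the culture contributed. The study is about the stress sensor IRE1α and the Golgi as β cells adapt to demand, and the labels name no genetic change in either group. Age, and whether the 4 libraries of a group came from separate animals, are not given in the labels, so p-values measure only the spread between these libraries, which may be technical.

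ALDH1A enzymes oxidise retinaldehyde, made from vitamin A, to retinoic acid, the ligand of the RAR and RXR nuclear receptors. In the embryonic pancreas, retinoic acid and Notch signalling act before and during the step in which Neurog3, the transcription factor that commits cells to the endocrine fate, is switched on, while Sox9 marks the progenitors and later the ducts and Hes1, a Notch target, represses Neurog3. In mouse models of diabetes, β cells that lose their mature identity have been described as re-expressing Neurog3 or as accumulating Aldh1a3, which is why these genes are read together as markers of dedifferentiation.

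The 3 ALDH1A genes are close relatives, and a stretch of their coding sequences is shown because it bears on how far reads can be assigned to each. Over the aligned coding sequence Aldh1a1 shared 68.1% of its bases with Aldh1a2 and 67.4% with Aldh1a3, and Aldh1a2 shared 68.4% with Aldh1a3. Aldh1a7, which lies on chromosome 19 like Aldh1a1, shared 91.6% with Aldh1a1. The longest stretch that Aldh1a1 and Aldh1a7 have in common, 100 bases that start at base 757 of both coding sequences, is given 5′ to 3′ from the GENCODE M21 transcripts (GRCm38), with capitals for bases that differ from Aldh1a1.
Aldh1a1 and Aldh1a7: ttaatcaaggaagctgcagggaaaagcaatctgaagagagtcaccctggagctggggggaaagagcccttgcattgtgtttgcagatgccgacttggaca
Aldh1a2: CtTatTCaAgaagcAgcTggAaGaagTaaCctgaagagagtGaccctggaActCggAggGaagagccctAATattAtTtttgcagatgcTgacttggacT
Aldh1a3: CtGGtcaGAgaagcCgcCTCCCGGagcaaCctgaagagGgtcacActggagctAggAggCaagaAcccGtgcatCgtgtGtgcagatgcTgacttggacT
Aldh1a2 differs at 23 of these 100 positions and Aldh1a3 at 25. Of the 4934 distinct 50-base words in Aldh1a1 transcripts, 151 (3.06%) also occur in Aldh1a7, so a small share of Aldh1a1 reads could have been split or dropped between the pair. No 50-base word of Aldh1a2, Sox9 or Hes1 occurs in transcripts of another gene on the same strand, and for Aldh1a3 53 of 4601 (1.15%) do, in many different genes.

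Total counts ran between 20516328 and 24905499 in the high glucose libraries and between 19543045 and 24949515 in the low glucose libraries. A floor of 3 counts corresponds to between 0.114 and 0.161 CPM (reads relative to the TMM-scaled library size), which covers counting error only. Of the 15442 genes, 3854 (25%) passed the edgeR quasi-likelihood test at a Benjamini-Hochberg adjusted p under 0.05, with 2023 (13.1%) higher and 1831 (11.9%) lower in high glucose. The 10 β-cell markers on the list used were all measured, and their summed level was 207974 to 274204 CPM in high glucose, against 187418 to 267799 in low glucose, so the labelled tissue expressed its defining markers. Ins1 and Ins2 make up most of this sum; of the 10 markers 2 rose and 4 fell (60.0%; 3 and 4 with the replicate block described next). Those that rose were G6pc2 and Iapp, and those that fell were Mafa, Slc2a2, Ucn3 and Slc30a8, whose call was lost without HG1, HG2, HG4, LG1, LG3 or LG4. Of 8 α-cell markers 2 rose, Gc and Ttr, and 1 fell, Slc7a2 (37.5% called). With that block 2 rose and 2 fell. The Ttr call was lost without HG2, LG1, LG3 or LG4. G6pc2, Iapp, Mafa, Slc2a2, Ucn3, Slc30a8 and Slc7a2 were picked after their values were seen. Libraries of numbers 2, 3 and 4 varied with the library of the same number in the other group, while number 1 hardly did. Each result is therefore also given with the number as a block where that changes the call. Under the block 5779 genes (37.4%) passed, with 2917 higher (18.9%) and 2862 lower (18.5%).

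Among the 6 genes, Aldh1a3 rose in high glucose, and the other 5 did not pass the test, which makes 1 of 6 called beside 25% of all genes tested. With the replicate block Aldh1a1 passed as well, which makes 2 of 6 beside 37.4%. The Neurog3, Sox9 and Hes1 intervals spanned 0 in both fits. The share of genes whose high and low glucose libraries do not overlap in CPM was 27.3% over all genes tested, and of the 6 genes Aldh1a3 is the one in which they did not. In bulk RNA, a difference in the number of cells of a type and one in RNA per cell cannot be told apart.

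**Figure D1:**
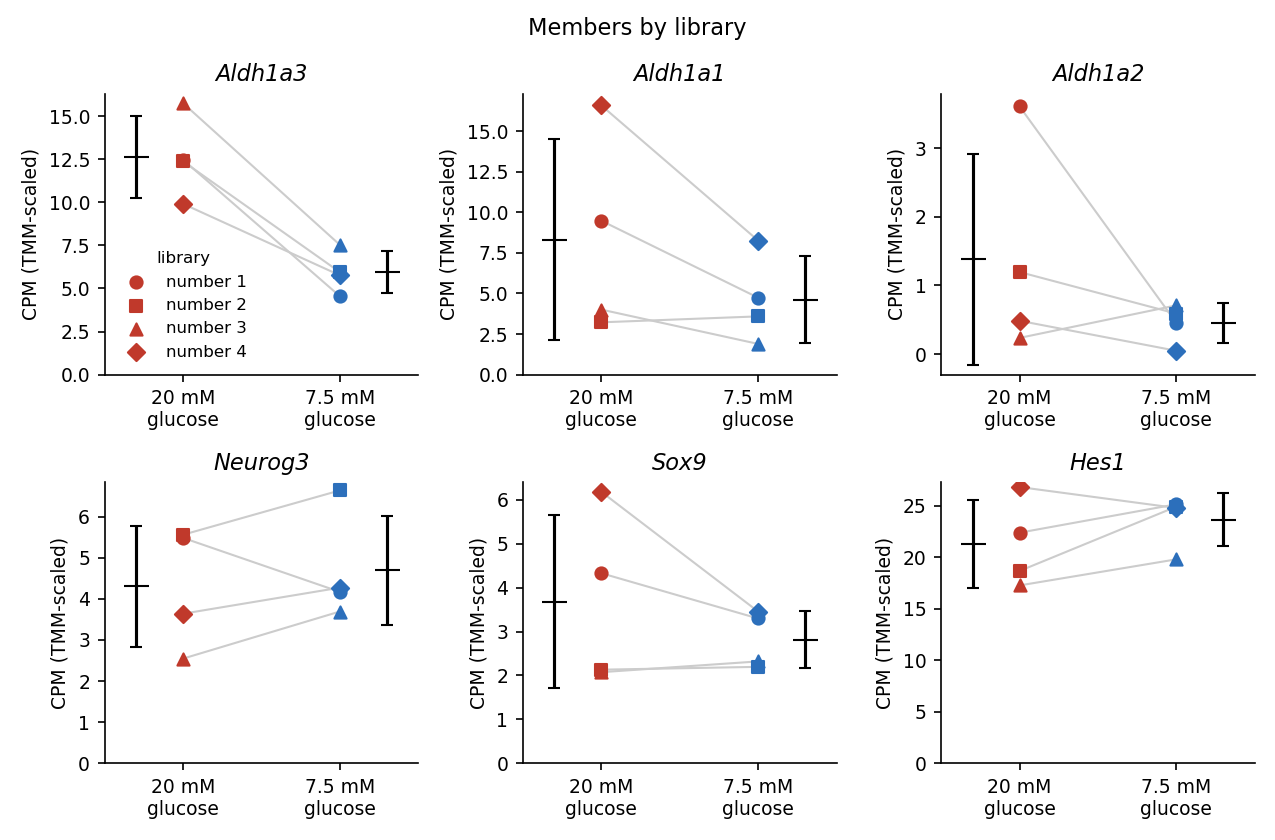
TMM-scaled CPM of the 6 genes in each library, with islets in 20 mM glucose on the left and in 7.5 mM glucose on the right of each panel. Marker shapes give the library number, grey lines join libraries of the same number, and black bars are the group mean ± SD (n = 4 each); the Aldh1a3 points of the groups do not overlap, and those of the other 5 genes do.

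Aldh1a3 (ENSMUSG00000015134, GRCm38 chromosome 7, 66390890 to 66427517, minus strand) encodes the retinaldehyde dehydrogenase that is the usual ALDH1A marker of failing β cells. It had 259, 238, 334 and 245 reads in HG1 to HG4, against 120, 111, 159 and 120 reads in LG1 to LG4. Scaled to library size, these are 12.5, 12.4, 15.7 and 9.91 CPM in high glucose, against 4.55, 5.94, 7.53 and 5.76 in low glucose. All 4 high glucose libraries lay above all 4 low glucose libraries, and the highest library of each group was number 3. The mean was 12.6 ± 2.40 CPM in high glucose and 5.95 ± 1.22 CPM in low glucose (SD, n = 4 each). The log2 fold change was 1.09 ± 0.18 (SE; 95% interval 0.68 to 1.49), a 2.12-fold increase with an edgeR adjusted p of 0.00163. The ratio of same-number libraries was 2.74, 2.08, 2.09 and 1.72 for numbers 1 to 4, so that Aldh1a3 was higher in 4 of 4 pairs. Leaving out any 1 library kept the log2 fold change between 0.96 and 1.22 and the edgeR adjusted p at or under 0.00689. In the authors' deposited table the log2 fold change is 1.09 with an adjusted p of 4.7e-07. The relative spread within a group was 19.0% (coefficient of variation) in high glucose and 20.6% in low glucose.

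Aldh1a1 (ENSMUSG00000053279, chromosome 19, 20492715 to 20643462, plus strand) encodes the cytosolic ALDH1A enzyme found in many adult epithelia. Its reads numbered 197, 62, 85 and 410 in HG1 to HG4, against 125, 67, 40 and 172 in LG1 to LG4. That is 9.48, 3.22, 4.01 and 16.6 CPM in high glucose and 4.74, 3.59, 1.89 and 8.26 CPM in low glucose. The groups overlapped, library 4 was the highest in both, and library 1 came next in both. The mean was 8.32 ± 6.17 CPM in high glucose and 4.62 ± 2.69 CPM in low glucose (SD, n = 4 each), with coefficients of variation of 74.1% and 58.3%. With the group as its only term the edgeR fit gave a log2 fold change of 0.86 ± 0.54 (SE; 95% interval -0.34 to 2.05, adjusted p = 0.286). With the replicate block it gave 0.77 ± 0.20, a 1.71-fold increase with an edgeR adjusted p of 0.00916. The ratio of same-number libraries was 2.00, 2.12 and 2.01 for numbers 1, 3 and 4, and 0.898 for number 2, so Aldh1a1 was higher in 3 of 4 pairs. Without HG4 the unblocked log2 fold change was 0.27, and over all 8 leave-one-out fits it lay between 0.27 and 1.29.

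Aldh1a7, the near copy of Aldh1a1, averaged 1.11 ± 0.951 CPM in high glucose and 0.602 ± 0.308 CPM in low glucose (SD, n = 4 each; log2 fold change 0.90 ± 0.67, edgeR adjusted p = 0.372). In the authors' FPKM, a level scaled by gene length and depth, Aldh1a7 averaged 0.533 in high glucose and 0.284 in low glucose. These means were below those of Aldh1a1, 1.67 and 0.916 FPKM.

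Aldh1a2 (ENSMUSG00000013584, chromosome 9, 71215789 to 71296243, plus strand) encodes the main retinoic acid-making enzyme of embryonic mesoderm. It was the least abundant of the 6 genes, with 75, 23, 5 and 12 reads in HG1 to HG4, against 12, 11, 15 and 1 in LG1 to LG4. The levels were 3.61, 1.20, 0.236 and 0.485 CPM in high glucose and 0.455, 0.589, 0.710 and 0.048 CPM in low glucose. The groups overlapped, and HG1 stood above every other library. The log2 fold change was 1.60 ± 0.82 (SE; 95% interval -0.22 to 3.41), with an edgeR adjusted p of 0.191. Without HG1 it was 0.48, and under the replicate block the adjusted p was 0.123. The LG4 value rests on 1 read, under the floor of 3 counts.

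**Figure D2:**
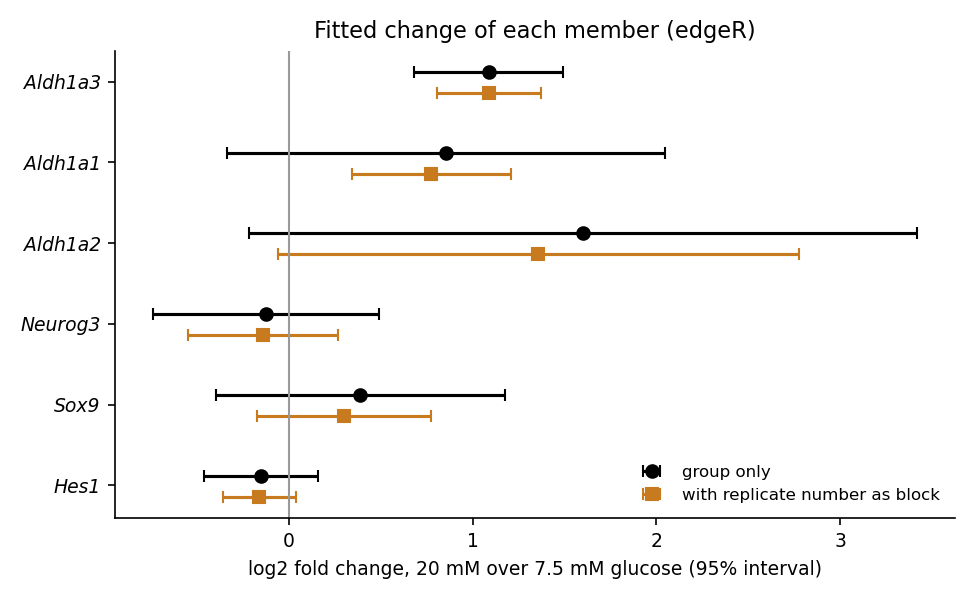
Fitted log2 fold change of each gene, 20 mM over 7.5 mM glucose, with its 95% interval from the edgeR fit on the group only (black) and with the replicate number as a block (orange). The interval of Aldh1a3 lies above 0 in both fits, that of Aldh1a1 only with the block, and those of the other 4 genes span 0 in both.

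Per length, the 3 ALDH1A genes together were higher in high glucose in each pair of libraries. Their summed FPKM, the authors' length- and depth-scaled level, was 6.13, 3.80, 4.32 and 5.66 in HG1 to HG4, against 2.08, 2.21, 2.27 and 2.90 in LG1 to LG4. The mean was 4.98 ± 1.10 FPKM in high glucose and 2.37 ± 0.367 FPKM in low glucose (SD, n = 4 each), and the groups did not overlap. Aldh1a3 held 57.3% ± 19.9 of this sum in high glucose and 53.7% ± 12.4 in low glucose (SD, n = 4 each), with libraries between 37.5% and 78.8% in high glucose and between 42.4% and 70.0% in low glucose. The shares overlapped between the groups. Aldh1a1 held 16.9% to 58.7% in high glucose, against 16.5% to 56.9% in low glucose, and in HG4 and LG4 it was the larger of these 2. The Aldh1a2 share reached 25.6% in HG1 and was at most 13.5% in low glucose.

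**Figure D3:**
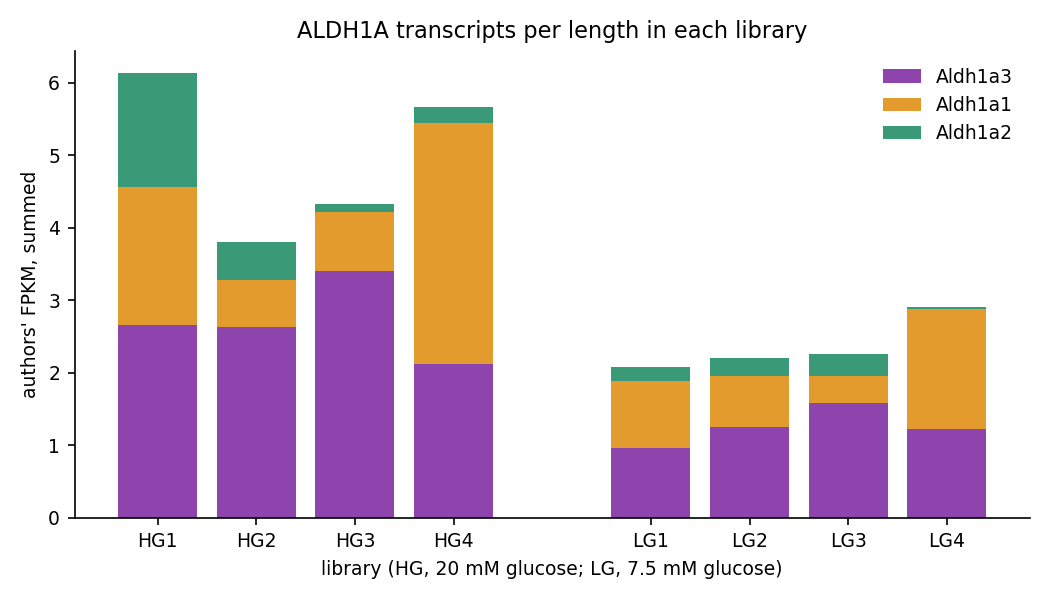
Stacked bars of the authors' FPKM of Aldh1a3, Aldh1a1 and Aldh1a2 in each library, high glucose on the left and low glucose on the right. The high glucose bars reach 3.80 to 6.13 and the low glucose bars 2.08 to 2.90, and the make-up of a bar differs between libraries within each group.

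Neurog3 (ENSMUSG00000044312, chromosome 10, 62133090 to 62134763, plus strand), the endocrine commitment factor, was read in every library. It had 114, 107, 54 and 90 reads in HG1 to HG4, against 110, 124, 78 and 89 in LG1 to LG4. Its level was 5.49, 5.56, 2.55 and 3.64 CPM in high glucose and 4.17, 6.64, 3.69 and 4.27 CPM in low glucose. The ranges overlapped, with the lowest value in HG3 and the highest in LG2. The mean was 4.31 ± 1.47 CPM in high glucose and 4.69 ± 1.32 CPM in low glucose (SD, n = 4 each). The log2 fold change was -0.12 ± 0.28 (SE; 95% interval -0.74 to 0.49, edgeR adjusted p = 0.788), and it took the other sign without HG3 (0.06) or without LG2 (0.09). The 95% interval spans changes in both directions, so it does not show that the groups were alike.

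The whole of Neurog3, 1674 bases, lies inside Fam241b, which runs on the opposite strand. Of the 1716 50-base words in Neurog3 transcripts, 229 (13.3%) are the reverse complement of words in Fam241b transcripts. Whether counting used strand is not given in the sources used here, so reads from this overlap cannot be told apart, and the Neurog3 level is uncertain. Fam241b had 17.2, 18.6, 15.6 and 16.9 CPM in high glucose, against 20.96, 26.4, 18.4 and 20.9 in low glucose. Fam241b fell 1.27-fold (edgeR adjusted p = 0.0494, and 0.00682 with the block), was lower in high glucose in 4 of 4 pairs, and kept its call in the leave-one-out fit without LG3 alone (adjusted p up to 0.126 in the others). Its highest library was LG2, as it was for Neurog3, and the part of Fam241b reads in the Neurog3 values was not tested.

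Sox9 (ENSMUSG00000000567, chromosome 11, 112782224 to 112787760, plus strand) encodes a transcription factor of pancreatic progenitors and adult ducts. Its reads numbered 90, 41, 44 and 153 in HG1 to HG4, against 87, 41, 49 and 72 in LG1 to LG4. The levels were 4.33, 2.13, 2.07 and 6.19 CPM in high glucose and 3.30, 2.20, 2.32 and 3.46 CPM in low glucose. Libraries 1 and 4 were the higher ones in both groups, and the groups overlapped. The mean was 3.68 ± 1.97 CPM in high glucose and 2.82 ± 0.652 CPM in low glucose (SD, n = 4 each). The log2 fold change was 0.39 ± 0.35 (SE; 95% interval -0.40 to 1.18, edgeR adjusted p = 0.469), and without HG4 it was 0.01.

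Hes1 (ENSMUSG00000022528, chromosome 16, 30064384 to 30067796, plus strand), the Notch-responsive repressor, was the most abundant of the 6 genes. It had 465, 359, 366 and 663 reads in HG1 to HG4, against 663, 465, 418 and 516 in LG1 to LG4. The levels were 22.4, 18.7, 17.3 and 26.8 CPM in high glucose and 25.1, 24.9, 19.8 and 24.8 CPM in low glucose. The groups overlapped, with both the lowest and the highest library in high glucose. The mean was 21.3 ± 4.27 CPM in high glucose and 23.7 ± 2.58 CPM in low glucose (SD, n = 4 each). The log2 fold change was -0.15 ± 0.14 (SE; 95% interval -0.46 to 0.16), with an edgeR adjusted p of 0.477. That interval is the narrowest of the 6.

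In the authors' deposited table the log2 fold changes of these 5 genes are 0.85 for Aldh1a1, 1.62 for Aldh1a2, -0.12 for Neurog3, 0.39 for Sox9 and -0.15 for Hes1. Its adjusted p-values are 0.397, 0.124, 0.815, 0.481 and 0.542 in the same order, so Aldh1a3 is the only one of the 6 under 0.05 there too.

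Levels per length were compared between the 6 genes within each group. In high glucose Hes1 averaged 10.3 ± 2.06 FPKM, Aldh1a3 2.71 ± 0.528, Neurog3 2.54 ± 0.857, Aldh1a1 1.67 ± 1.24, Sox9 0.881 ± 0.472 and Aldh1a2 0.602 ± 0.671 (SD, n = 4). There only Hes1 stood apart from its neighbour, and the ranges of all other neighbours overlapped. In low glucose Hes1 averaged 11.3 ± 1.25 FPKM, Neurog3 2.73 ± 0.763, Aldh1a3 1.26 ± 0.258, Aldh1a1 0.916 ± 0.541, Sox9 0.665 ± 0.157 and Aldh1a2 0.193 ± 0.124 (SD, n = 4). There Hes1 and Neurog3, Neurog3 and Aldh1a3, and Sox9 and Aldh1a2 did not overlap. Neurog3 was above Aldh1a3 in all 4 low glucose libraries and in HG1, HG2 and HG4 (3.23, 3.27 and 2.15 FPKM, against 2.66, 2.63 and 2.12 for Aldh1a3), so the higher mean of Aldh1a3 in high glucose rests on HG3 (3.41 FPKM, against 1.52 for Neurog3). The order also varied elsewhere, with Aldh1a2 above Sox9 in HG1 and HG2, Aldh1a1 above Neurog3 in HG4 and above Aldh1a3 in LG4, and Sox9 above Aldh1a1 in LG3. Among all genes tested the mean FPKM over the 8 libraries put Hes1 at the 75.3rd percentile, Neurog3 at 41.1, Aldh1a3 at 35.4, Aldh1a1 at 28.4, Sox9 at 20.6 and Aldh1a2 at 11.5.

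Markers of other pancreatic cells varied between libraries along with some of these genes. The acinar list holds enzymes of the exocrine pancreas and the transcription factor genes Ptf1a, Rbpjl and Bhlha15. Summed over this list, levels were 11601, 4190, 4224 and 21239 CPM in HG1 to HG4, against 8774, 3690, 1478 and 12234 CPM in LG1 to LG4. Of its 15 measured genes 1 rose, Bhlha15, and none fell (6.67% called, beside 25% of all genes tested). With the replicate block 10 rose and none fell, beside 18.9% of all genes tested higher and 18.5% lower. The libraries with the highest acinar sums, HG4, LG4, HG1 and LG1, are also those with the highest Aldh1a1 and Sox9 levels. The duct list summed to 1306 to 1870 CPM in high glucose, against 1133 to 1480 in low glucose, with its highest library in HG4. Of its 13 measured genes 1 rose and 1 fell (15.4% called), and with the block 5 rose and 2 fell. The fibroblast and stellate list summed to 1837, 531, 455 and 257 CPM in HG1 to HG4, against 224, 510, 424 and 229 CPM in LG1 to LG4, and none of its 12 measured genes passed in edgeR, with or without the block, while 2 were higher and none lower at an unadjusted p under 0.05. HG1 was the highest library for this list and for Aldh1a2. The part of these cells in the results for Aldh1a1, Sox9 and Aldh1a2 was not tested.

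**Figure D4:**
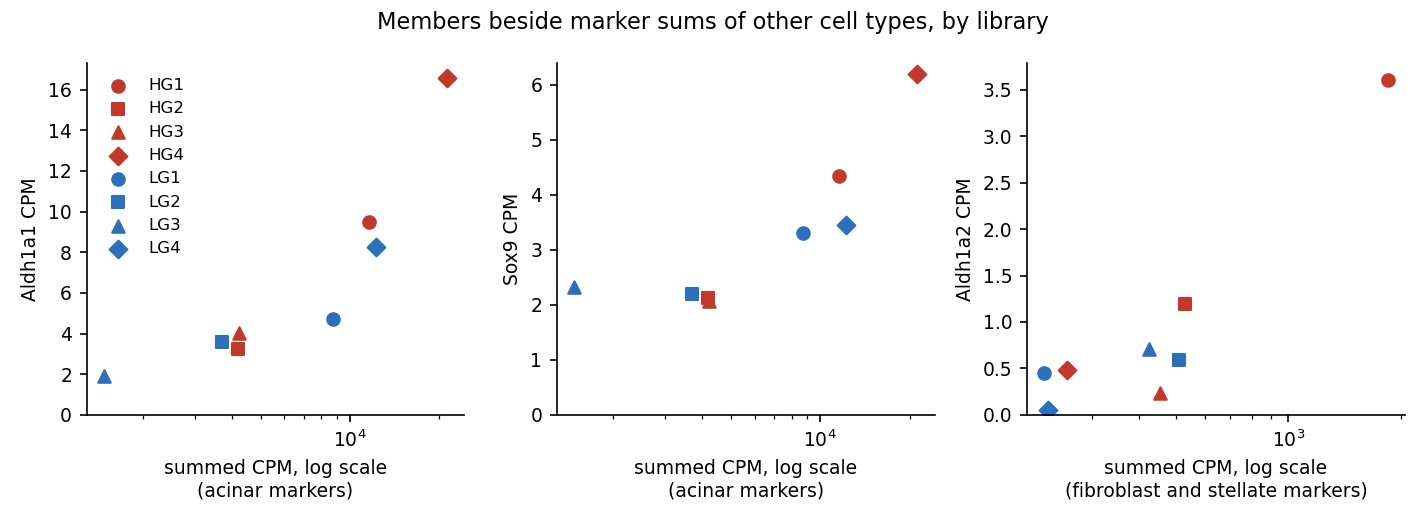
Aldh1a1 and Sox9 CPM against the summed CPM of acinar markers, and Aldh1a2 CPM against that of fibroblast and stellate markers, on a log horizontal axis, with 1 point per library (red, 20 mM glucose; blue, 7.5 mM glucose). HG4 lies at the upper right in the first 2 panels and HG1 in the third.

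Within the groups, the order of libraries for Aldh1a3 was not that of the acinar sums. Its highest libraries were HG3 and, within low glucose, LG3, where the acinar sums were 4224 and 1478 CPM, and its lowest high glucose library was HG4, where that sum was 21239 CPM. The endothelial list summed to 36.9 to 52.1 CPM in high glucose, against 42.1 to 60.4 in low glucose, and the macrophage and leukocyte list to 238 to 352 CPM in high glucose, against 278 to 444 in low glucose. Mesothelial markers, from cells known to express Aldh1a2, summed to 48.4 to 89.3 CPM in high glucose, against 49.9 to 77.3 in low glucose, and Schwann and neural markers to 32.3 to 47.2 CPM in high glucose, against 19.2 to 39.1 in low glucose. Of 12 macrophage and leukocyte markers 1 fell, Cd79a, a B-cell gene (8.33% called), and with the block 1 rose and 3 fell. Of 3 mesothelial markers 1 fell, Msln (33.3% called), and with the block 1 rose and 1 fell. Wt1, Upk1b, Lrrn4, Bnc1 and Nkain4, the other mesothelial markers with values, averaged at most 0.438 CPM in high glucose and 0.0931 CPM in low glucose and were too low to be tested. Krt19 is on both the mesothelial and the duct list, so the mesothelial sum is not particular to mesothelial cells. None of the 10 endothelial and none of the 9 Schwann and neural markers tested passed in the edgeR fit without the block. At an unadjusted p under 0.05, 1 endothelial marker was higher and 1 lower, and no Schwann and neural marker was either. Median log2 fold changes were -0.15 for the endothelial and 0.56 for the Schwann and neural markers. With the block 1 Schwann and neural marker rose and none fell, and no endothelial marker passed. The δ-cell list summed to 3203, 4385, 2748 and 3026 CPM in HG1 to HG4, against 1791, 3279, 1824 and 2101 CPM in LG1 to LG4. Most of that sum is the somatostatin gene Sst (log2 fold change 0.65 ± 0.23, edgeR adjusted p = 0.0628, and 2.98e-05 with the block). None of the 6 markers on the list passed in edgeR without the block, 1 was higher and 1 lower at an unadjusted p under 0.05, and the median log2 fold change was 0.05; with the block 2 rose and 1 fell. The acinar, duct, fibroblast and stellate, and δ-cell sums were each higher in high glucose in 4 of 4 same-number pairs, as Aldh1a3 was. So were the β-cell sum (ratios 1.19, 1.02, 1.25 and 1.11) and the Schwann and neural sum (1.06, 1.21, 1.68 and 1.09). The part of all these cells in the Aldh1a3 result was not tested.

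Genes whose profile over the 8 libraries was most like a given member were found by the root mean square difference of centred log2 CPM among 10537 protein-coding genes of at least 5 CPM. Closest to Aldh1a3 were Stk32b (0.15), Mfap3l (0.15) and Tacc3 (0.16), to Aldh1a1 Tead2 (0.17), Nes (0.18) and Scd1 (0.20), and to Hes1 Aldh2 (0.09), Mgat4b (0.10) and Mettl2 (0.11), as log2 units. Stk32b, Mfap3l and Tacc3 averaged 6.99, 6.96 and 9.63 CPM in high glucose and 3.63, 3.48 and 4.71 CPM in low glucose, and all 3 rose (log2 fold changes 0.94, 1.00 and 1.03). Tacc3 overlaps Tmem129 and its level is uncertain. Tead2, Nes and Scd1 did not pass without the block (log2 fold changes 0.68, 0.54 and 0.72, edgeR adjusted p = 0.415, 0.433 and 0.36) and passed with it (adjusted p = 0.00483, 0.00928 and 0.000301), as Aldh1a1 did. The search used the high and low glucose libraries together, so a change like that of the member was built into the choice. The changes and calls of these genes are therefore no independent evidence. Aldh1a2, Sox9 and Neurog3 lay under 5 CPM and were not searched.

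Of the other aldehyde dehydrogenases, which act on amino acid, lipid and alcohol metabolites, 14 were measured, 2 rose and 2 fell (28.6% called, beside 25% of all genes; median log2 fold change 0.04, beside -0.01 over all genes). Aldh18a1, which starts proline synthesis from glutamate, rose 1.45-fold to 189 ± 8.86 CPM in high glucose, against 131 ± 2.37 in low glucose (SD, n = 4 each; edgeR adjusted p = 0.000208). Aldh5a1, of GABA breakdown, rose 1.51-fold (75.8 ± 6.71 CPM in high glucose, 50.3 ± 1.05 CPM in low glucose; adjusted p = 0.000265). Aldh6a1, of valine breakdown, fell 1.60-fold (23.2 ± 2.30 CPM in high glucose, 37.1 ± 2.34 CPM in low glucose; adjusted p = 0.000329), and it overlaps Bbof1. Aldh4a1, of proline breakdown, fell 1.39-fold (11.3 ± 1.77 CPM in high glucose, 15.8 ± 2.05 CPM in low glucose; edgeR adjusted p = 0.0264), a call that was lost without HG1, HG4 or LG3. Without HG1 or LG3 1 gene of the list fell, and under the replicate block 3 rose and 4 fell. Aldh1b1, a mitochondrial relative found in progenitors, had a log2 fold change of -0.06 ± 0.19 (edgeR adjusted p = 0.854), and Aldh2, the mitochondrial acetaldehyde enzyme, of -0.20 ± 0.11 (adjusted p = 0.24, and 0.0314 with the block).

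**Figure D5:**
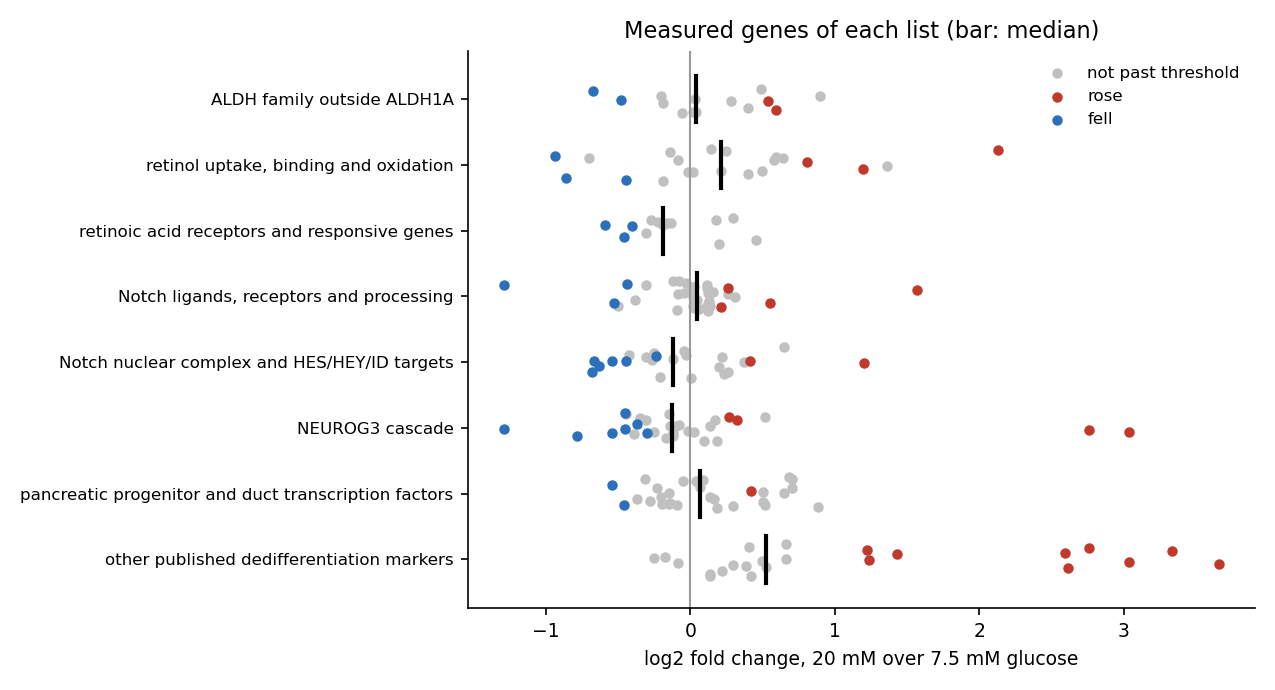
Log2 fold change, 20 mM over 7.5 mM glucose, of each measured gene in 8 pathway lists, with genes that rose in red, genes that fell in blue, the others in grey, and the list median as a black bar. In this fit on the group with TMM scaling, genes past the threshold lie on both sides of 0 in 6 of the lists, below 0 only for retinoic acid receptors and responsive genes and above 0 only for other published dedifferentiation markers.

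Upstream of the ALDH1A enzymes, 21 genes of retinol uptake, binding and oxidation were measured, of which 3 rose and 3 fell (28.6%; median log2 fold change 0.21). Rbp3, a retinoid-binding protein best known from the eye, rose 4.37-fold (2.88 ± 0.287 CPM in high glucose, 0.661 ± 0.245 CPM in low glucose; edgeR adjusted p = 0.000339). Bco1, which cleaves β-carotene to retinaldehyde, rose 2.29-fold (13.3 ± 0.967 CPM in high glucose, 5.82 ± 1.44 CPM in low glucose; adjusted p = 0.000654), and the short-chain dehydrogenase Dhrs7 rose 1.75-fold (adjusted p = 0.000517). Adh1, an alcohol dehydrogenase that oxidises retinol, fell 1.92-fold (77.8 ± 10.0 CPM in high glucose, 149 ± 19.4 CPM in low glucose; adjusted p = 0.000247), and Adh5, the formaldehyde-handling member of that family, fell 1.36-fold (adjusted p = 0.0144). The third that fell was Bco2, the other carotenoid oxygenase, named after its values were seen (1.81-fold, adjusted p = 0.033). Rdh10, which makes retinaldehyde from retinol, averaged 29.7 ± 9.57 CPM in high glucose and 30.1 ± 6.56 CPM in low glucose (log2 fold change -0.02 ± 0.21, edgeR adjusted p = 0.965). Dhrs3, which turns retinaldehyde back to retinol, had a log2 fold change of 0.49 ± 0.26 (adjusted p = 0.202), and the plasma retinol carrier gene Rbp4 of 0.02 ± 0.20 (adjusted p = 0.954). The retinol receptor gene Stra6 was too low to be tested. The number that rose was 6 with the replicate block, 6 without LG2 and 5 without LG4.

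Downstream of the enzymes, 13 retinoic acid receptors, cofactors and responsive genes were measured, of which none rose and 3 fell (23.1%; median log2 fold change -0.19). Both are counts from edgeR; at an unadjusted p under 0.05 none was higher and 4 were lower. Rarg, a retinoic acid receptor, fell 1.37-fold (17.0 ± 0.836 CPM in high glucose, 23.4 ± 1.67 CPM in low glucose; edgeR adjusted p = 0.0024). Rara, another, fell 1.32-fold (10.1 ± 1.25 CPM in high glucose, 13.4 ± 1.38 CPM in low glucose; adjusted p = 0.0366), and its adjusted p reached 0.103 when a library was left out (the call was lost without HG1, HG2, HG4, LG1, LG3 or LG4). Ncoa1, a coactivator of nuclear receptors, fell 1.51-fold (adjusted p = 0.0125). Rxra, the partner of these receptors, had a log2 fold change of -0.16 ± 0.07 (adjusted p = 0.104), and Cyp26b1, which degrades retinoic acid and is induced by it, one of 0.58 ± 0.38 (0.70 ± 0.271 CPM in high glucose, 0.457 ± 0.156 CPM in low glucose; adjusted p = 0.31). Cyp26a1, Crabp2, Rarb and Rxrg were too low to be tested. Without LG2 6 genes fell and 1 rose, and under the replicate block 6 fell and none rose.

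Around Hes1, 35 Notch ligands, receptors and processing genes were measured, of which 4 rose and 3 fell (20.0%; median log2 fold change 0.04). Dll1, a Notch ligand that Neurog3-positive cells make in the embryo, fell 2.45-fold to 4.04 ± 0.312 CPM in high glucose, against 9.87 ± 1.46 in low glucose (SD, n = 4 each; edgeR adjusted p = 0.000153). Dll1 overlaps the lincRNA A930024N18Rik. The receptor gene Notch1 fell 1.36-fold (40.4 ± 6.21 CPM in high glucose, 54.8 ± 7.51 CPM in low glucose; edgeR adjusted p = 0.0311), a call that was lost without HG2, HG3, LG1, LG3 or LG4, and Dtx3, of the Deltex family, fell 1.44-fold (adjusted p = 0.00134). Dlk1, a non-canonical ligand made by β cells, rose 2.97-fold (16.4 ± 6.71 CPM in high glucose, 5.54 ± 0.836 CPM in low glucose; adjusted p = 0.00178), and Dner, a Notch ligand of neurons, rose 1.46-fold (adjusted p = 0.00685). Ncstn, a γ-secretase subunit gene, rose 1.20-fold (edgeR adjusted p = 0.0275), a call that was lost without HG2, HG3, LG1, LG3 or LG4 and with library size alone as the scaling (adjusted p = 0.0686). It overlaps the far more abundant Copa. Without HG2, HG3, LG1 or LG3 2 genes of the list rose. The ligand gene Jag1 had a log2 fold change of 0.31 ± 0.12 (adjusted p = 0.0842), and the receptor gene Notch2 of 0.12 ± 0.27 (adjusted p = 0.783).

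The Notch nuclear complex and its HES, HEY and ID genes gave 2 that rose and 6 that fell among 23 measured (34.8%; median log2 fold change -0.12). Tle3, a corepressor that HES proteins recruit, fell 1.61-fold (110 ± 13.8 CPM in high glucose, 177 ± 15.4 CPM in low glucose; edgeR adjusted p = 0.000727), while its relative Tle1 rose 1.33-fold (58.5 ± 2.94 CPM in high glucose, 43.9 ± 4.00 CPM in low glucose; adjusted p = 0.00294). Id2, an inhibitor of basic helix-loop-helix factors, fell 1.45-fold (68.3 ± 4.90 CPM in high glucose, 99.3 ± 11.4 CPM in low glucose; adjusted p = 0.00186), while Id1 rose 2.30-fold (20.3 ± 3.06 CPM in high glucose, 8.85 ± 2.00 CPM in low glucose; adjusted p = 0.000534). Bhlhe41, a transcriptional repressor, fell 1.59-fold (adjusted p = 0.00105) and the Notch coactivator gene Maml3 1.36-fold (adjusted p = 0.0188, lost without LG1, LG3 or LG4). Without LG1 or LG4 3 genes of the list fell. Rbpj, the DNA-binding partner of Notch, had a log2 fold change of -0.04 ± 0.09 (edgeR adjusted p = 0.779), Hey1 of -0.31 ± 0.28 (adjusted p = 0.469) and Hes6 of -0.12 ± 0.11 (adjusted p = 0.491).

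Of the Neurog3 cascade, the genes that act with or after Neurog3 in the embryo, 30 were measured, 4 rose and 7 fell (36.7%; median log2 fold change -0.13). Besides Dll1, Tox3, an HMG-box factor, fell 1.72-fold (48.4 ± 2.49 CPM in high glucose, 83.4 ± 6.41 CPM in low glucose; edgeR adjusted p = 5.31e-05). The endocrine transcription factor genes Rfx6 and Myt1 fell 1.45-fold (83.8 ± 5.88 CPM in high glucose, 122 ± 12.3 CPM in low glucose; adjusted p = 0.00137) and 1.37-fold (adjusted p = 0.00246). The hormone genes Cck and Gast, both also on the dedifferentiation list, rose 6.78-fold (2.13 ± 0.264 CPM in high glucose, 0.308 ± 0.150 CPM in low glucose; adjusted p = 0.000211) and 8.22-fold (1.78 ± 0.522 CPM in high glucose, 0.218 ± 0.129 CPM in low glucose; adjusted p = 0.00113). These folds rest on few low glucose reads, with 39 to 52 Cck reads in the HG libraries, against 4 to 11 in the LG libraries, and 22 to 52 Gast reads in the HG libraries, against 1 to 7 in the LG libraries. Neurod1, a direct target of Neurog3, had a log2 fold change of -0.17 ± 0.08 (edgeR adjusted p = 0.151, and 0.0439 with the block), and Insm1 of 0.17 ± 0.08 (adjusted p = 0.169). Neurod1 overlaps Cerkl. With the replicate block 6 rose and 13 fell, and 11 fell without LG2, while 2 rose without HG1, HG2, HG3, LG1 or LG3.

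Around Sox9, 29 pancreatic progenitor and duct transcription factors were measured, of which 1 rose and 2 fell (10.3%; median log2 fold change 0.07). Id2 was among those that fell. Ehf, an epithelial ETS factor, rose 1.34-fold (21.6 ± 2.05 CPM in high glucose, 16.2 ± 1.66 CPM in low glucose; edgeR adjusted p = 0.013), and it missed the threshold without HG1 (adjusted p = 0.0501), which left none that rose. Without LG2 4 fell, and under the replicate block 8 rose and 4 fell.

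Of 23 other measured genes that have been published as markers of β-cell dedifferentiation, 9 rose and none fell. That is 39.1% called, beside 25% of all genes tested (13.1% higher). The median log2 fold change was 0.52, beside -0.01 over all genes. At an unadjusted p under 0.05 the edgeR counts were also 9 higher and none lower. Some genes of this list were included with results of these libraries known, so its direction is no independent evidence. The prodynorphin gene Pdyn rose 10.1-fold (829 ± 151 CPM in high glucose, 82.2 ± 17.5 CPM in low glucose; edgeR adjusted p = 3.46e-06). Serpina7, which encodes thyroxine-binding globulin, rose 6.13-fold (36.1 ± 5.56 CPM in high glucose, 5.93 ± 1.02 CPM in low glucose; adjusted p = 3.74e-06). Gc, which encodes the vitamin D-binding protein, rose 6.02-fold (297 ± 35.6 CPM in high glucose, 49.4 ± 11.7 CPM in low glucose; adjusted p = 6.77e-06), and the sugar transporter gene Slc5a10 12.6-fold (16.2 ± 7.0 CPM in high glucose, 1.3 ± 0.563 CPM in low glucose; adjusted p = 7.27e-05), though it overlaps the more abundant Fam83g. The fold of Aldh1a3, 2.12, was smaller than that of each of these 4 genes. With the replicate block 12 genes of this list rose and 1 fell, and with library size alone as the scaling 1 fell.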

How the data were processed

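Bulk RNA of 8 islet cultures, 4 in high and 4 in low glucose, was analysed from the table the authors deposited. Per the submitters' processing notes, STAR 2.5, HTSeq 2 and DESeq2 were used with mm10 (GRCm38). Per the labels' protocols the library kit was NEBNext Ultra RNA; strand setting and annotation release were not given in the sources used here. The deposited read counts are whole numbers, not normalized, and were used for all tests. The deposited signal per library, a size-factor normalized count, was not used for tests. The authors' FPKM, the count scaled by gene length and library total, gave levels per length. The log2 fold change and p-value columns deposited by the authors are their own comparison of high with low glucose.

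Tests of the counts used edgeR 4.0.16 under R 4.3.3: TMM scaling, filterByExpr (minimum count 10, minimum total 15), a quasi-likelihood F test on the group over all 8 libraries, and Benjamini-Hochberg adjustment over 15442 genes at 0.05. CPM uses the TMM library size, the SE is the log2 fold change over the root of F, and intervals are 95%. The pipeline was tested on simulated data. The closest library pair differed by 14.3 in chi-square per gene, so none was a copy of another. Library numbers were taken to pair the samples. Deviations from the group means of same-number libraries correlated at 0.101, 0.449, 0.404 and 0.475 over genes. Numbers come from the labels, which do not say what they stand for, and the first value is just over the limit of 0.1 used. Number 1 is not set apart as a pair, since LG1 correlated with HG4 at 0.207 and HG1 with LG2 at 0.088. Coding sequences were aligned with mafft 7.526, and gene identifiers matched GENCODE M21 for 27514 of 27534 genes.

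The 6 genes, the gene lists and the alternatives were chosen with earlier results of these data known. Named genes are the 6, a panel of 28 retinoid, Notch, Neurog3 and ALDH genes whatever their result (Crabp1 and Pax4 of these have no values here), up to 4 passing genes of each list in the direction with more calls and up to 2 in the other, by smallest adjusted p, the 3 genes of most similar profile, and the 2 most abundant of each cell type list, given here in list sums; some genes that this rule names are not reported here. Alternatives were DESeq2 size factors, library size alone, no filter on low counts, at least 1 CPM in 4 libraries, DESeq2 1.42.0, limma-voom 3.58.1, the replicate block and leaving out each library.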

Additional observations from a re-analysis of the deposited data

Results flagged for a closer look

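Single libraries that stood apart from the other 3 of their group were looked for in 166 groups of 4 values, and 16 were found; by chance about 1 in 20 groups is. Hes1 was low in LG3, at 19.8 CPM against 24.8 to 25.1 CPM in the other low glucose libraries. In LG2, Notch1 was low at 43.6 CPM (the others 57.2 to 59.9), Maml3 was low at 45.3 CPM (62.0 to 64.8), Hes6 was high at 56.8 CPM (38.7 to 41.5) and Adh5 was high at 75.1 CPM (57.0 to 58.3). Also in LG2, Ins2 was high at 202000 CPM (131131 to 142356) and C1qa, a macrophage gene, was high at 152 CPM (98.1 to 104). In other low glucose libraries, Insm1 was low in LG1 at 365 CPM (414 to 420), Ins1 low in LG4 at 25300 CPM (35902 to 36416), Ngfr low in LG3 at 4.12 CPM (10.2 to 11.5) and Stk32b high in LG3 at 4.92 CPM (3.07 to 3.36). In high glucose, Rbpj was high in HG1 at 33.8 CPM (29.2 to 29.8), Maml3 low in HG2 at 37.0 CPM (44.7 to 46.0), Ttr high in HG2 at 1660 CPM (1145 to 1192), Krt18 high in HG4 at 346 CPM (194 to 212) and Eng high in HG3 at 12.3 CPM (8.69 to 8.89). LG2 gave 6 of the 16 values.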

How the results depend on the processing

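Aldh1a3 stayed past the threshold with the same direction under every alternative run. Its log2 fold change lay between 0.96 and 1.22 when 1 library was left out. The call of Aldh1a1 depended on the pairing: with the replicate block its log2 fold change was 0.77 and it passed, and without 1 library the unblocked value lay between 0.27 and 1.29. Neurog3 changed sign when 1 library was left out, between -0.27 and 0.087. The same range was 0.48 to 1.95 for Aldh1a2, 0.01 to 0.58 for Sox9 and -0.28 to -0.06 for Hes1. Aldh1a2 had no value with at least 1 CPM in 4 libraries. The block moved the number of genes lower in high glucose to 2862, against 1831, and changed the call of no other of the 6 genes. Genes called overall numbered 3015 to 5132 without 1 library, the highest without LG2. With library size alone 37.8% of called genes were higher, against 52.5%, and the median over all genes shifted to -0.09. Leaving out 1 library, log2 fold changes near 0 took both signs for Aldh1b1 (-0.17 to 0.074), Hes6 (-0.18 to 0.020), Notch2 (-0.050 to 0.33), Rbp4 (-0.12 to 0.23), Rbpj (-0.10 to 0.021) and Rdh10 (-0.27 to 0.14), and Rbp4 was -0.050 with library size alone. Without the filter on low counts Rara missed the edgeR threshold (adjusted p = 0.0578), and with library size alone Neurod1 (0.0356) and Rxra (0.0436) passed. The cause of these changes was not tested. The Aldh1a2 values rest on between 1 and 75 reads a library.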
